A study of Mus musculus with 6 samples.

Results

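The integrated stress response regulators described here are 10 genes: Atf4, Atf3, Ddit3, Trib3, Chac1, Atf5, Ppp1r15a, Asns, Nupr1 and Gdf15. They were taken by name from a pathway list, among 55378 genes of the count table, and 8 of the 10 had enough counts to be among the 15619 genes tested. The samples were mouse embryos that had been injected as zygotes with an siRNA against Eif4a3 (knockdown) or with a control siRNA (NC). Both groups were taken on day 5, as blastocysts per the series' description, with 3 libraries per group, each a pool of 5 embryos, made by Smart-seq2, a full-length method for small amounts of polyadenylated RNA. The strain was not given in the sources used here, and nothing says whether the pools of a group came from separate parents. The p-values below therefore measure only the spread between these samples. The protein made from Eif4a3 is a helicase that clamps the exon junction complex onto mRNA when introns are removed.

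The integrated stress response starts when a kinase that senses amino acid shortage, unfolded protein, viral RNA or haem shortage phosphorylates the initiation factor eIF2. General translation is then reduced, while the mRNA of ATF4, whose upstream open reading frames normally hold ribosomes back, is translated more. ATF4 and the factors it induces, CHOP (the product of Ddit3) among them, bind promoters of genes for amino acid supply, for relief of the translation block and for cell death. The step at eIF2 is on protein, so the RNA levels given here report on the transcript of each gene and not on eIF2 phosphorylation or on ATF4 protein.

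ATF4 and CHOP bind composite C/EBP-ATF elements, searched here as TGATGNAA or its reverse complement TTNCATCA on both strands of RefSeq promoter windows (GRCm38.p6, 250 bases before to 50 after the start). Such a match was present in 5 of the 12 windows of the 10 genes, each of a different gene, and in 3.97% of 32851 windows of all genes. The 30 bases around each match are printed because ATF4 is known to act on its targets through elements of this kind; the capitals mark the match and the strand is that of the gene.
Atf3, chr1:191183425-191183454, minus strand: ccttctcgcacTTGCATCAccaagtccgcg
Chac1, chr2:119351038-119351067, plus strand: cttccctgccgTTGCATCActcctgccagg
Trib3, chr2:152344028-152344057, minus strand: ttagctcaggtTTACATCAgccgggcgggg
Asns, chr6:7693214-7693243, minus strand: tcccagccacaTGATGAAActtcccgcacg
Nupr1, chr7:126625562-126625591, minus strand: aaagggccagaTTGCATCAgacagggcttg
The matches of Atf3 and Nupr1 began 110 bases before the start, that of Chac1 193 bases and that of Asns 23 bases before it, and that of Trib3 lay at base 15 after it. In Nupr1 the match was part of a longer one to TGATGCAAT (ATTGCATCA on the other strand), which 0.192% of all windows held. The cAMP response element TGACGTCA, which ATF and CREB factors bind, was found in Ppp1r15a alone among the 10, and in 1.79% of all windows.
Ppp1r15a, chr7:45526262-45526291, minus strand: cgcctctccggTGACGTCAgcacagcgccg
A match is a run of letters and not a measured binding site. The windows of Atf4, Ddit3, Atf5 and Gdf15 did not hold these letters, from which nothing follows about the factors. Of the 5 genes with a composite match, Chac1 had more counts in every knockdown library than in any NC library, Atf3 had fewer, and the ranges of Trib3, Asns and Nupr1 overlapped, as given below.

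The values below are counts-per-million values (CPM), scaled for composition by the TMM method. Fold changes are those of edgeR's quasi-likelihood test, knockdown over NC, with p-values adjusted by the Benjamini-Hochberg method over all genes tested and a threshold of 0.05. Sums over exon blocks came to 18617245, 16157719 and 18697754 counts in knockdown replicates 1 to 3 and to 18389986, 15607227 and 16956939 counts in NC replicates 1 to 3. The targeted gene Eif4a3 measured 16.0, 36.2 and 56.2 CPM in the knockdown libraries, against 302, 255 and 202 CPM in the NC libraries (log2 fold change −2.81, standard error 0.44, edgeR adjusted p 0.00512). Across all genes the median log2 fold change was 0.03. Of cell type markers, 7 of 11 tested trophectoderm genes and 4 of 10 epiblast and inner cell mass genes were lower in the knockdown. So were 4 of 8 primitive endoderm genes, beside 5.56% of all tested genes. Among these endoderm genes Pdgfra had 0.0469, 0.909 and 0.542 CPM in knockdown against 6.32, 14.0 and 13.2 CPM in NC libraries. Pdgfra entered the test through its NC libraries, so the endoderm count is a description. All 12 tested genes of the 2-cell stage were higher, beside 7.52% of all tested genes. With NC levels as low as those below, they entered the test through their knockdown libraries, so this count is a description. The summed CPM was 583 to 2242 in knockdown against 2517 to 6414 in NC libraries for the trophectoderm list. It was 228 to 325 against 604 to 750 for the epiblast list, 317 to 357 against 701 to 856 for the primitive endoderm list, and 121 to 354 against 0.796 to 1.44 for the 2-cell list. Of 10 cumulus cell markers, 6, Cyp19a1, Fshr and Amh among them, had 0 counts in every library, but the summed list was 16.3 to 28.8 CPM in knockdown against 3.58 to 15.4 CPM in NC libraries. Its 1 tested gene, Amhr2, did not pass (log2 fold change 1.15, edgeR adjusted p 0.152). Of 6 tested blood markers 2, the globin genes Hbb-bs (−3.85) and Hbb-bt (−3.42), were lower, and the summed list was 4.36 to 11.6 CPM in knockdown against 8.27 to 51.5 CPM in NC libraries. Both globin genes entered the test through their NC libraries. Of 3 tested fibroblast markers 0 passed by edgeR or DESeq2 and 0 had an unadjusted p under 0.05 in edgeR, with sums of 1.02 to 10.7 CPM in knockdown against 1.99 to 12.7 CPM in NC libraries. In such bulk samples fewer cells of a type and less RNA per cell cannot be told apart, and the part of these differences in the results below was not tested.

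Ddit3 and Gdf15 were higher in the knockdown, 2 of the 8 genes tested, beside 7.52% of all tested genes. Gdf15 was among the 8 only because its knockdown libraries were high enough for the filter on low counts, and Atf3 only through its NC libraries, so this count is a description. No gene of the 8 was lower by edgeR or by DESeq2, beside 5.56% of all tested genes. At an unadjusted p under 0.05 in edgeR, 1, Atf3, was lower and 3 were higher, Ddit3, Gdf15 and Atf4 (unadjusted p 0.0428 for Atf4). The other 6, Atf4, Atf3, Trib3, Ppp1r15a, Asns and Nupr1, did not pass the threshold, and Chac1 and Atf5 had too few counts to enter the test. The libraries of the groups did not overlap for 4 of the 8 tested genes (Atf4, Atf3, Ddit3 and Gdf15), beside 36.4% of all tested genes, and for Chac1 among the others. They are given below by role, from the central factor outward.

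**Figure D1:**
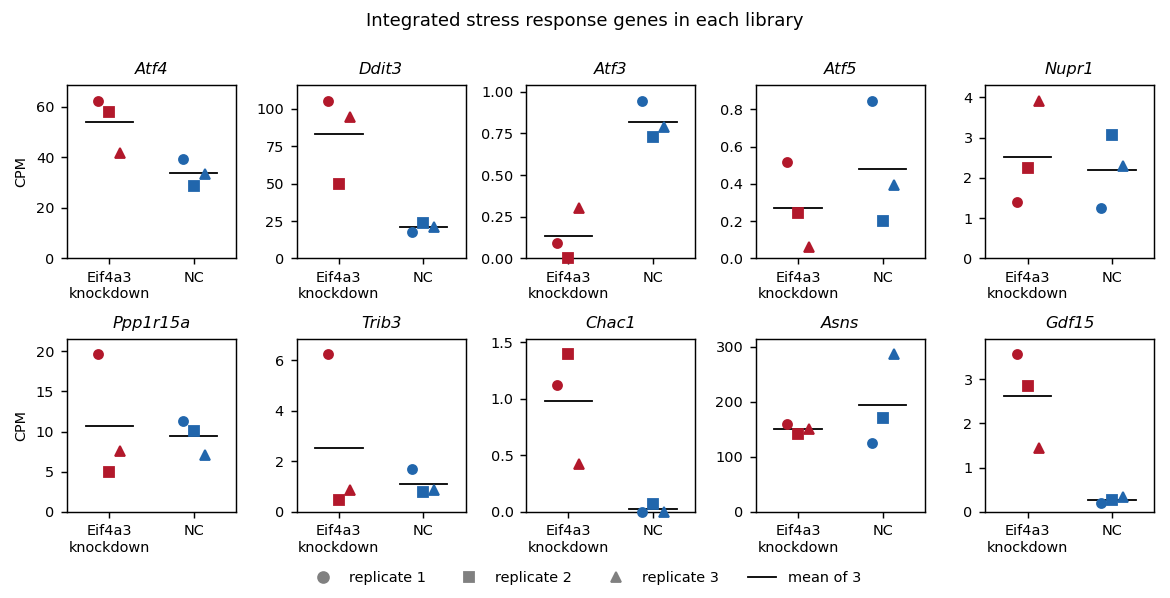
Level (CPM) of each of the 10 genes in every library, with knockdown libraries on the left and NC libraries on the right of each panel; symbols mark the replicate number and lines the mean of 3. The groups stand apart for Atf4, Ddit3, Atf3, Chac1 and Gdf15, and knockdown replicate 1 holds the highest point for Atf4, Ddit3, Ppp1r15a, Trib3 and Gdf15.

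Atf4, on chromosome 15 (GRCm38, 80255184 to 80257541, plus strand), encodes the transcription factor at the centre of the response. It had 62.2, 57.8 and 41.7 CPM in knockdown replicates 1 to 3, against 39.3, 28.6 and 33.2 CPM in NC replicates 1 to 3. Every knockdown library was above every NC library in these scaled values, though knockdown replicate 3 exceeded NC replicate 1 only slightly. Their order rests on the TMM scaling. Knockdown replicate 3 held 693 Atf4 counts with a block sum of 18697754, and NC replicate 1 held 790 with a block sum of 18389986. The means were 53.9 ± 10.8 and 33.7 ± 5.35 CPM (SD, n = 3 each), a 1.60-fold difference that did not pass the threshold (log2 fold change 0.68, standard error 0.29, edgeR adjusted p 0.151). Under 15 alternative analyses, which changed the scaling, the filter, the tool or the counting of exons, left out 1 library at a time or added a replicate block, it ranged from 0.52 to 0.82 and passed in none. All exon lines of Atf4 merge into 1 block. The ratio of counts in the first exon, which is 5′ UTR, to those in the last exon was 0.190, 0.140 and 0.217 in the knockdown and 0.123, 0.147 and 0.146 in NC, and these ranges overlapped (exact two-sided permutation test, p = 0.3).

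Ddit3, on chromosome 10 (127290774 to 127296288, plus strand), encodes CHOP, a bZIP factor that ATF4 induces and that is known for its part in stress-induced cell death. It had 105, 49.7 and 94.6 CPM in knockdown replicates 1 to 3, against 18.0, 23.4 and 21.0 CPM in the NC libraries. All knockdown libraries were above all NC libraries, the nearest being knockdown replicate 2, which was still above the highest NC library. The means were 83.2 ± 29.6 and 20.8 ± 2.72 CPM (SD, n = 3 each), so that Ddit3 was 4.0-fold higher (log2 fold change 2.0, standard error 0.35, edgeR adjusted p 0.00704). It passed in all 15 alternatives, with log2 fold changes of 1.74 to 2.47.

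The Ddit3 difference was alike in exons 1 to 3 and the first part of the last exon, and smaller once the end of that exon was included. A pair can count in more than 1 of these stretches, and the exon usage test given below called no block of Ddit3. That test takes the whole last exon (127295723 to 127296288) as 1 block, so it cannot address the end of that exon by itself. In exon 1, part of the 5′ UTR, knockdown libraries had 9.93, 4.30 and 7.82 CPM against 1.39, 1.93 and 0.984 CPM in NC, a ratio of means of 5.13. In exon 2, also 5′ UTR, the means were 11.7 ± 4.21 CPM in the knockdown and 1.92 ± 0.47 CPM in NC, a ratio of 6.10. In exon 3, which holds the start codon, they were 22.2 ± 7.79 and 3.92 ± 0.71 CPM, a ratio of 5.68. The coding sequence goes on into the last exon, which the annotation lists in a short and a whole form. The short form gave 37.9 ± 15.0 CPM in the knockdown and 6.96 ± 0.77 CPM in NC (ratio 5.45), and the whole form 41.7 ± 15.1 and 13.4 ± 1.77 CPM (ratio 3.12).

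The difference between both forms is the pairs that touched only the last 223 bases (127296066 to 127296288), nearly all of it 3′ UTR. These went the other way, with 79, 59 and 65 counts in knockdown libraries against 99, 96 and 121 in NC libraries, or 3.73 ± 0.17 against 6.41 ± 1.51 CPM, a ratio of 0.58. For each of these 6 stretches the groups did not overlap, and the exact two-sided permutation test gave p = 0.1, the smallest that 3 against 3 libraries allow. The last 68 bases of Ddit3 (127296221 to 127296288) also belong to the end of Mars, a methionyl-tRNA synthetase gene on the opposite strand. Smart-seq2 does not mark strand, so pairs there cannot be assigned to either gene. The Mars block concerned had 317, 146 and 182 counts in the knockdown and 184, 203 and 170 in NC. With every exon line that another gene overlaps left out, an alternative chosen after the data were seen, Ddit3 had 102, 46.1 and 90.7 CPM in the knockdown and 13.1, 17.1 and 13.1 CPM in NC, 5.54-fold higher (log2 fold change 2.47, standard error 0.36, edgeR adjusted p 0.00391). The table also lists a second gene identifier under the symbol Ddit3, a reading frame of 105 bases within exons 1 and 2 with its own start and stop codon. This is the upstream open reading frame that is known to hold back translation of CHOP, and its counts are the same pairs as those of exons 1 and 2, so it is no separate evidence.

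**Figure D2:**
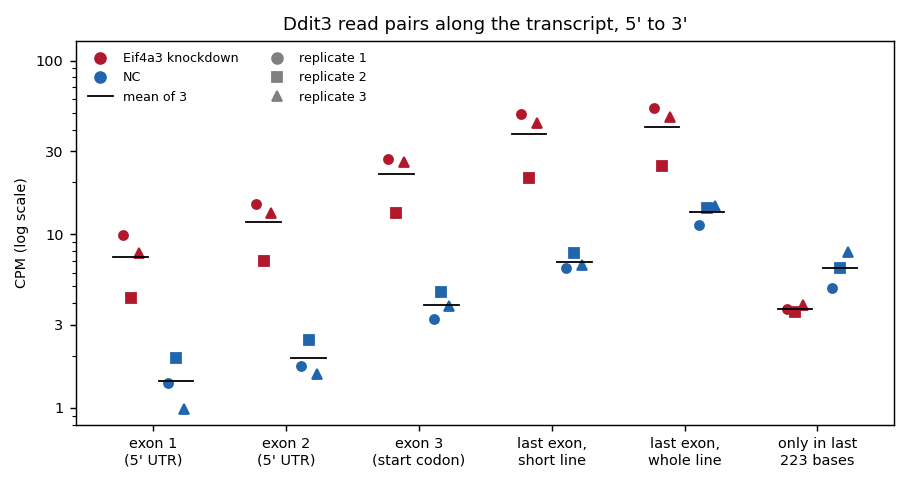
Level (CPM, log scale) of Ddit3 pairs in each stretch of its transcript from the 5′ to the 3′ end, for knockdown libraries (red, left) and NC libraries (blue, right), with lines at the mean of 3. The knockdown points lie above the NC points in the first 5 stretches, and below them for the pairs that touched only the last 223 bases, where the end of Mars overlaps.

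Atf3, on chromosome 1 (191170296 to 191218039, minus strand), encodes another bZIP factor of the response, which is also induced by growth factors and DNA damage. Its RNA was close to the limit of detection. It had 2, 0 and 5 counts in knockdown libraries, against 19, 11 and 12 counts in NC libraries, or 0.0937, 0 and 0.301 CPM against 0.945, 0.730 and 0.787 CPM. A count of 0 in knockdown replicate 2 allows a level of up to 0.182 CPM (3 counts). The groups did not overlap, and the pooled counts were 6.48-fold lower in the knockdown (95% exact interval 2.89 to 17.1, counting error only). The interval is too narrow where 1 pair counted in several blocks. The gene passed the filter on low counts only through the NC libraries, and the difference did not pass the threshold (log2 fold change −2.60, standard error 0.94, edgeR adjusted p 0.0934). It passed in 1 of 14 alternatives, that with only the most counted block (−3.17, adjusted p 0.0198). That block is the last exon, which held 2, 0 and 2 knockdown counts and 15, 11 and 12 NC counts, while no other exon held more than 2 in any library.

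Atf5 encodes a bZIP factor whose mRNA, like that of Atf4, is under the control of upstream open reading frames. The gene is on chromosome 7 (44812256 to 44816658, minus strand), and the counts listed for it cannot be assigned to it. The 3 of its 4 blocks that hold its coding exons and another first exon, 1736 bases in all, had 0 counts in every library. All of its 11, 4 and 1 counts in the knockdown and 17, 3 and 6 counts in NC fell in the remaining first exon (44816402 to 44816658). There 82 of 257 bases are shared with exons of Nup62, a nuclear pore protein gene, and Il4i1, an amino acid oxidase gene, both on the opposite strand.

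Nupr1, on chromosome 7 (126623249 to 126630861, minus strand), encodes a small stress-induced chromatin protein. The libraries held 1.41, 2.24 and 3.91 CPM in the knockdown, against 1.24, 3.05 and 2.30 CPM in NC. The ranges overlapped over most of their length, and the gene did not pass (log2 fold change 0.20, standard error 0.59, edgeR adjusted p 0.853). Its last exon, in the 3′ UTR, had 13, 18 and 32 counts in the knockdown and 14, 25 and 18 counts in NC, and the coding exon before it 15, 18 and 32 counts in the knockdown and 11, 20 and 17 in NC.

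A pair of members feed back on the pathway. Ppp1r15a (chromosome 7, 45522916 to 45526268, minus strand) encodes GADD34, the subunit that brings protein phosphatase 1 to eIF2 and so reverses its phosphorylation. Its level was 19.6, 4.97 and 7.52 CPM in the knockdown, against 11.3, 10.03 and 7.02 CPM in NC. Knockdown replicate 1 was the highest of the 6 libraries and knockdown replicate 2 the lowest. The difference did not pass (log2 fold change 0.18, standard error 0.51, edgeR adjusted p 0.843), and it was −0.64 without knockdown replicate 1. Trib3 (chromosome 2, 152337422 to 152344032, minus strand) encodes a pseudokinase that binds ATF4 and CHOP and limits their activity. Its level was 6.23, 0.485 and 0.843 CPM in the knockdown, against 1.69, 0.797 and 0.853 CPM in NC. Knockdown replicate 1 alone was high, with 133 counts against 8 and 14 in the other knockdown libraries and 34, 12 and 13 in NC. The log2 fold change of 1.17 (standard error 0.90, edgeR adjusted p 0.412) became −0.79 without that library.

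Chac1 (chromosome 2, 119351229 to 119354381, plus strand) encodes an enzyme that degrades glutathione and is among the best known targets of ATF4 and CHOP. There were 24, 23 and 7 counts in knockdown libraries against 0, 1 and 0 counts in NC libraries, or 1.12, 1.39 and 0.421 CPM against 0, 0.0664 and 0 CPM. The groups did not overlap, as for 23.7% of the 31769 genes with a count in any library. Pooled counts were 49.97-fold higher in the knockdown, with a 95% exact interval of 8.60 to 2009.9 for counting error alone. That interval takes block counts as separate pairs, so it is too narrow where 1 pair counted in several blocks. The last exon held 18, 17 and 6 of the knockdown counts and the only NC count, and the first exon 3, 3 and 0 knockdown counts. The filter on low counts left the gene out of the test. Without the filter it was higher (log2 fold change 5.14, standard error 1.40, edgeR adjusted p 0.00433, beside 6.58% of all genes higher in that fit). It could enter the filtered test only through its high knockdown libraries, when 1 library was left out. It was then not called without NC replicate 1, 2 or 3 (edgeR adjusted p 0.0753, 0.0567 and 0.0777). It was called without knockdown replicate 3 (0.0299), its lowest knockdown library, a selection that raises its mean, and that call is no support.

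Asns (chromosome 6, 7675169 to 7693254, minus strand) encodes asparagine synthetase, a classical target of the amino acid branch of the response. It measured 159, 140 and 150 CPM in the knockdown, against 125, 170 and 286 CPM in NC. The knockdown libraries lay close together inside the NC range, which NC replicate 3 stretched upward. The gene did not pass (log2 fold change −0.37, standard error 0.33, edgeR adjusted p 0.486), and it was 0.0033 without NC replicate 3.

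Gdf15 (chromosome 8, 70629393 to 70632456, minus strand) encodes a secreted factor of the TGF-beta superfamily that is used as a marker of cell stress and is a known target of CHOP, of ATF4 and of p53. There were 76, 47 and 24 counts in knockdown libraries against 4, 4 and 5 counts in NC libraries, or 3.56, 2.85 and 1.44 CPM against 0.199, 0.266 and 0.328 CPM. All knockdown libraries were well above all NC libraries, and the gene was 9.77-fold higher (log2 fold change 3.29, standard error 0.67, edgeR adjusted p 0.0128). The pooled counts gave a ratio of 10.5 (95% exact interval 5.93 to 20.1, counting error only, too narrow where 1 pair counted in several blocks). Gdf15 passed the filter on low counts only through the knockdown libraries. The call held in 13 of 15 alternatives and was lost without NC replicate 1 (adjusted p 0.0506) and without NC replicate 2 (0.0608). The last exon held 39, 36 and 16 knockdown counts and 2, 4 and 3 NC counts, and the exon before it 24, 11 and 4 against 2, 0 and 1.

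**Figure D3:**
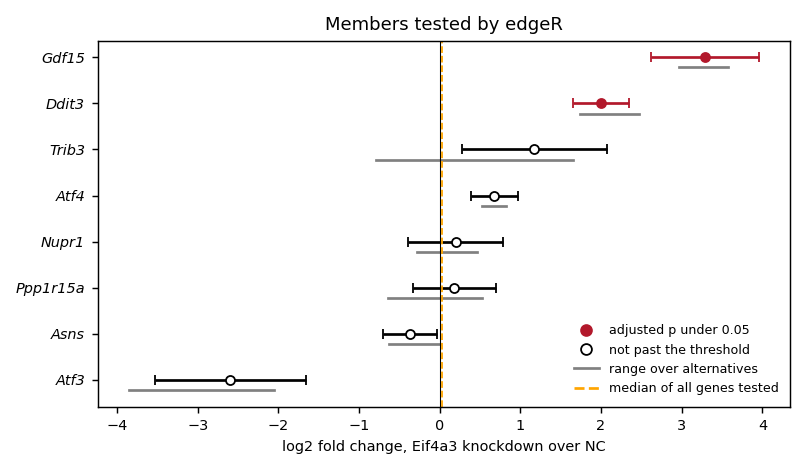
Log2 fold change, knockdown over NC, of the 8 genes that edgeR tested, with bars of 1 standard error; filled points passed an adjusted p of 0.05, grey lines span the alternative analyses, and the dashed line is the median of all tested genes (0.03). Gdf15 and Ddit3 passed, Atf4 lay above 0 under every alternative without passing, and the ranges of Trib3, Nupr1, Ppp1r15a and, by 0.0033, Asns crossed 0.

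Per kilobase of exon, Asns and Ddit3 had the highest block sums of the 10 in the knockdown, with means of 54.7 and 48.6 CPM per kilobase and overlapping libraries. A pair that spans a junction counts in each block it touches. Asns has 13 blocks, Ddit3 4 and Atf4 1, so the order of genes given here is not an order of abundance. Atf4 followed at 22.9 and Ppp1r15a at 3.65 CPM per kilobase, each apart from its neighbour above. The other 6 lay between 1.41 (Gdf15) and 0.0611 (Atf3) CPM per kilobase, each overlapping the next. In NC, Asns led with 70.8 CPM per kilobase, and Atf4 (14.3) and Ddit3 (12.2) followed with overlapping libraries, Atf4 having the higher mean. Ppp1r15a (3.22) stood apart below them, the next 5, down to Gdf15 (0.143), each overlapped their neighbour, and Chac1 (0.0135) was lowest. Library by library, knockdown replicate 1 was the highest of all 6 for 5 of the 10 genes, Atf4, Ddit3, Trib3, Ppp1r15a and Gdf15, and it also had the lowest Eif4a3 level, 16.0 CPM. The share of all genes that were highest in this library was not computed. With 3 knockdown libraries no relation between the levels of these genes and that of Eif4a3 could be tested.

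A ratio of 2 genes within a library does not depend on scaling, so each member that had counts in every library was set against Atf4. Ddit3 counts were 0.76, −0.22 and 1.18 log2 units relative to Atf4 in the knockdown, against −1.13, −0.29 and −0.66 in NC, a difference of 1.27. Knockdown replicate 2 was only just above NC replicate 2. For Gdf15 the ratios were −4.13, −4.34 and −4.85 in the knockdown and −7.63, −6.75 and −6.66 in NC, a difference of 2.57. Both had the smallest exact permutation p that the design allows, 0.1 (0.35 adjusted over 7 ratios). The ratio of Asns to Atf4 differed by −0.96 (p = 0.2, exact permutation test), that of Ppp1r15a by −0.71 (p = 0.3), that of Nupr1 by −0.50 (p = 0.6), that of Trib3 by −0.29 (p = 0.8) and that of Atf5, with its overlapped exon, by −1.72 (p = 0.2).

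Since Eif4a3 acts on spliced RNA, the exon blocks of the members were also compared with the rest of their own gene (edgeR, exon usage). The 19 blocks of Ddit3, Asns, Nupr1 and Ppp1r15a that could be tested held 0 calls, beside 0.168% of all blocks and 0.906% of all genes tested for usage, and none at an unadjusted p under 0.05. The log2 usage differences were −0.25 to 0.36, with a lowest unadjusted p of 0.193 in edgeR.

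Other genes of the pathway were described from lists by their counts past the same threshold, beside 7.52% of all tested genes higher and 5.56% lower. These lists too were chosen with earlier results of these data known. A list of 21 tested genes held eIF2 kinases, regulators of these kinases, eIF2 and eIF2B subunits and eIF2 phosphatases. Of these 21, 3 were higher, regulators of the kinases among them, and 3 lower, with a median log2 fold change of −0.26. Ppp1cb, a catalytic subunit of protein phosphatase 1, had 20.3, 34.8 and 33.5 CPM in the knockdown against 89.1, 74.5 and 77.4 CPM in NC (log2 fold change −1.44, edgeR adjusted p 0.0148), and no alternative ended the call. Eif2s3x, which encodes the gamma subunit of eIF2, was lower (log2 fold change −1.12, edgeR adjusted p 0.0273, and 0.0651 to 0.0929 without knockdown replicate 2 or any 1 NC library). Dnajc3, which encodes the inhibitor p58IPK of eIF2 kinases, was higher by 1.27 (edgeR adjusted p 0.0320, and 0.0621 to 0.114 without 1 of 5 libraries, all but knockdown replicate 3).

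Of 17 other targets of ATF4 and CHOP, 4 were higher and 0 lower by edgeR, with a median of 0.52. At an unadjusted p under 0.05 in edgeR the counts were 7 and 0, and by DESeq2 5 and 0. Genes of this list can answer to other pathways too, as Gdf15 does to p53, and what raised them was not tested. Ero1a, an oxidase of the endoplasmic reticulum and known CHOP target, had 60.6, 120 and 58.3 CPM in the knockdown against 18.4, 21.4 and 21.5 CPM in NC (log2 fold change 1.96, edgeR adjusted p 0.00804), and passed in all 15 alternatives. Tnfrsf10b, a death receptor gene, had 96.8, 66.8 and 71.3 CPM in the knockdown against 25.1, 29.9 and 39.5 CPM in NC (1.31, edgeR adjusted p 0.0208), a call lost without NC replicate 1 (0.0868) or 2 (0.0996). Ddit4, an inhibitor of mTORC1 signalling, had 2.67, 3.45 and 1.56 CPM in the knockdown against 0.199, 0.465 and 0.328 CPM in NC (2.95, edgeR adjusted p 0.0187). This call was lost without knockdown replicate 2 or any 1 NC library (0.0599 to 0.0668). Ddit4 passed the filter on low counts only through its knockdown libraries, so its place among the 4 is a description.

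Of 26 tested genes of amino acid supply, the class to which Asns belongs, 2 were higher and 2 lower, shares near those of all tested genes, with a median of −0.49. Cth, an enzyme of cysteine synthesis, was higher by 1.19 (edgeR adjusted p 0.0272) and Slc3a2, the heavy chain of amino acid transporters, by 1.30 (0.0356). Phgdh, the first enzyme of serine synthesis, was lower, with 82.7, 23.9 and 45.4 CPM in the knockdown against 291, 156 and 115 CPM in NC (log2 fold change −1.89, edgeR adjusted p 0.0314). Each of these 3 calls was lost in 4 or 5 of the 6 analyses that left out 1 library, with adjusted p of 0.051 to 0.142.

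Of 22 tested bZIP partner genes 1 was higher and 1 lower, of 22 genes of the unfolded protein response of the endoplasmic reticulum 1 was higher and 2 lower, and of 12 mitochondrial chaperones and proteases 1 was lower. Their median log2 fold changes were 0.30, −0.12 and −0.76. The bZIP gene that was higher, Fosl1, passed the filter on low counts only through its knockdown libraries. Of 12 immediate-early genes, the class with which Atf3 shares induction by growth factors, 1 was higher and 2 lower, with a median of −0.30. Of 20 tested p53 targets, the other pathway to which Gdf15 answers, 8 were higher and 0 lower by edgeR (10 and 0 at an unadjusted p under 0.05, 8 and 0 by DESeq2), with a median of 0.74. Among the 8 is Fas, with a log2 fold change of 5.34 (standard error 1.14). Its levels by library are not given here, and it may have passed the filter on low counts only through its knockdown libraries. The count of 8 is therefore a description. Eda2r, a death receptor gene (log2 fold change 2.18, edgeR adjusted p 0.0043), and Trp53inp1 (1.95, 0.00476) had the smallest p of that list. Of 16 known targets of nonsense-mediated decay, which the exon junction complex promotes, 5 were higher and 1 lower, with a median of 0.82. Snhg15, a host gene of small nucleolar RNA, had the smallest p among them (3.54, edgeR adjusted p 0.00165).

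**Figure D4:**
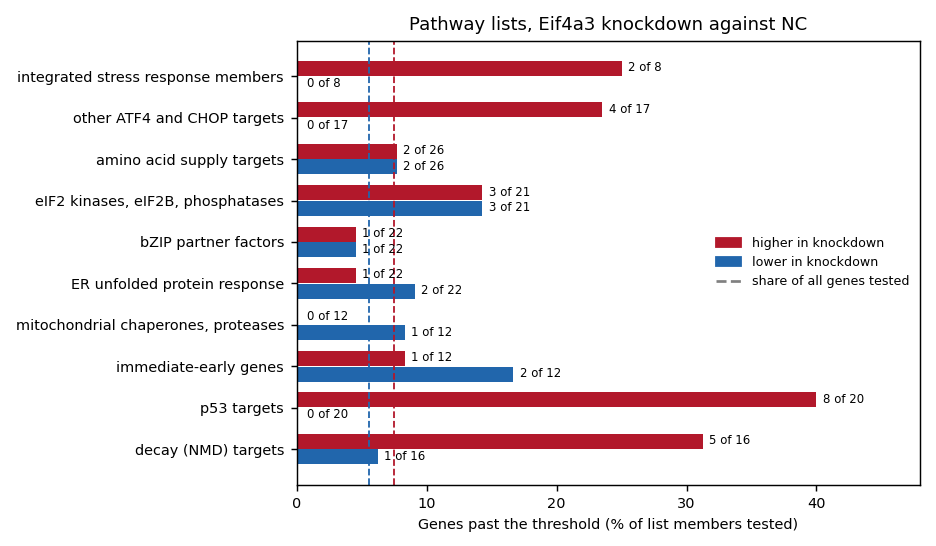
Share of tested genes of each pathway list (marker lists of cell types are not drawn) that passed an edgeR adjusted p of 0.05, higher (red) or lower (blue) in the knockdown than in NC, with the count beside each bar; dashed lines mark the shares of all tested genes, 7.52% higher and 5.56% lower. The p53 targets (8 of 20 higher) and the decay targets (5 of 16 higher) have the longest bars of the lists drawn, and the amino acid list has equal bars in both directions. The list labelled for eIF2 kinases, eIF2B and phosphatases also holds eIF2 subunits and regulators of the kinases.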

How the data were processed

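RNA of 3 knockdown and 3 NC pools was compared. Per the submitters' processing notes, reads were handled with FastQC 0.11.9, fastp 0.20.1, STAR 2.7.6a, featureCounts 2.0.1, R 4.1.1 and DESeq2 1.34.0 on GRCm38. Per the file headers, the authors deposited raw counts of read pairs per exon line (GENCODE vM29 moved to GRCm38), each pair counted in every line it overlapped, with strand setting 2 and no option for pairs with several alignments. Smart-seq2 does not mark strand, so pairs of the other orientation are missing, and overlapping genes cannot be told apart.

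The planned tests assumed counts per gene. Here 842173 lines (449500 distinct exons) were collapsed to 291424 blocks of overlapping exons. Each block took the value of its most counted line, and a gene the sum of its blocks. A pair that spans a junction counts in more than 1 block. Symbols matched 55102 of 55378 identifiers, and exons of coding and UTR type were read from GENCODE vM21. Genes were tested with edgeR 4.0.16 in R 4.3.3 (filterByExpr, TMM, glmQLFit, glmQLFTest, diffSpliceDGE for usage), which was tested on simulated data. DESeq2 1.42.0, other scalings, filters and ways of summing, and leaving out each library were alternatives. Exact intervals (95%) and floors (3 counts) cover counting error only. The intervals take the counts of a gene's blocks as separate pairs, so they are too narrow where 1 pair counts in several blocks.

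The members and lists were chosen with earlier results of these data known. All 10 members are named, and from each list up to 3 genes past the threshold with the smallest unadjusted p, of which the text gives fewer for some lists. Fas is named besides for the size of its fold change. Same-numbered libraries of both groups had deviations from the group means that correlated at 0.27, 0.00 and 0.10, and the labels tie the numbers to nothing shared, so the groups were compared as unpaired.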

Additional observations from a re-analysis of the deposited data

How the results depend on the processing

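Eif4a3 and Ddit3 were called in all 15 alternatives. Over all genes, 1174 were higher and 869 lower by edgeR, 2089 and 1518 without the filter on low counts, and 1829 and 1490 by DESeq2. Leaving out 1 library gave 550 to 1224 higher and 336 to 1130 lower genes. The count of members called higher, 2, was 1 to 3 on leaving out 1 library. The count called lower, 0, was 1 (Atf3) when genes were counted by their most counted block. Over the pathway lists 25 genes were higher and 12 lower, and on leaving out 1 library 9 to 19 and 1 to 22. With replicate numbers as a block, edgeR gave 1331 higher and 1196 lower genes, called the same 2 members and turned Ppp1r15a to −0.023. Without 1 library the log2 fold changes ranged from −0.79 to 1.66 for Trib3, −0.64 to 0.52 for Ppp1r15a, −0.63 to 0.0033 for Asns and −0.28 to 0.46 for Nupr1, and the Trib3 to Atf4 ratio from −1.27 to 0.52. The cause was not tested. Chac1 and Atf5 could not be fitted where they failed the filter, nor Atf3 in 1 and Trib3 in 2 alternatives. Below about 3 counts per library (0.141 to 0.199 CPM) levels are not resolved, which limits Atf3, Atf5 and Chac1.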
